A study of Homo sapiens with 3 samples.

Results

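Ribosome biogenesis factors of the nucleolus were followed in THP-1 cells treated with GSK-LSD1. The group holds 10 genes, chosen by name as rows of the count table that carry their UniProt accessions: NCL (P19338), NPM1 (P06748), FBL (P22087), NOP56 (O00567), NOP58 (Q9Y2X3), DKC1 (O60832), POLR1B (Q9H9Y6), BOP1 (Q14137), NOLC1 (Q14978) and RRP12 (Q5JTH9). They are 10 of 213543 rows. Of the 10, 7 had at least 10 counts in every library, and these 7 are the ones for which changes can be described.

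THP-1 cells come from a human acute monocytic leukemia and express the MLL-AF9 fusion protein, and GSK-LSD1 inhibits the lysine demethylase LSD1, which induces myeloid differentiation in these cells. The 3 groups are untreated wild-type cells (Control, 0 h), cells treated for 8 h and cells treated for 24 h, both with 0.2 µM GSK-LSD1. All 3 derive from the same cell line in the same medium. Each group is 1 RNA-seq library of total RNA depleted of ribosomal RNA, so no difference has a replicate check and no p-value was computed.

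Ribosomes are assembled in the nucleolus, where RNA polymerase I transcribes the long precursor of the ribosomal RNAs. Small nucleolar RNAs (snoRNAs) then guide its chemical modification: box C/D snoRNAs direct ribose methylation and box H/ACA snoRNAs direct pseudouridylation. Many further factors cut, fold and export the maturing subunits. Growing leukemic cells make many ribosomes, and genes of this pathway are well-known targets of the oncoprotein MYC.

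Some genes of this group are themselves hosts of snoRNAs, which are cut out of their introns. A pair of them is printed here to show the guides that NOP56, NOP58 and FBL bind, as read from GENCODE v44 transcripts on GRCh38, in the direction of transcription. Capitals mark the letters TGATGA (box C) near the start and CTGA (box D) near the end. SNORD20 lies on the reverse strand in an intron of NCL (chr2:231456444-231456523), and SNORD11 lies on the forward strand in an intron of NOP58 (chr2:202293051-202293134).
SNORD20: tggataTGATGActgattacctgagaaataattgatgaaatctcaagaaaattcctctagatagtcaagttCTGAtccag
SNORD11: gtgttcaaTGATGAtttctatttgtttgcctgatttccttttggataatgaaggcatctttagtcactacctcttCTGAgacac
Of 313 annotated SNORD transcripts, 59.4% hold TGATGA in the first 20 bases and CTGA in the last 12, searched on the transcribed strand.

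The library totals were 1475938 counts for untreated cells, 1310912 after 8 h and 1444011 after 24 h. Levels are given as CPM, the counts divided by the library size after TMM scaling. A count of 0 allows up to 3 counts, equal to 1.95 CPM in the untreated library, 2.34 in the 8 h library and 2.11 in the 24 h library. Reads carry no molecular identifiers and are not independent molecules, so all intervals and limits describe counting error alone. The 8 h library stood apart in mitochondrial ribosomal RNA, with 12 counts against 2373 at 0 h and 1014 at 24 h. What part this has in the values at 8 h was not tested. Rows under a protein accession are not paired with gene names in the files, so cell identity could be read only from non-coding transcripts. Of 12 monocytic and THP-1 markers, 7 had such a row, too few for a check of the list. These 7 held 87, 51 and 55 counts together at 0 h, 8 h and 24 h, of which the CD33 rows held 67, 44 and 45. Rows of MPO and MEIS1 were at 0 in every library, and those of CSF1R, HOXA9, ITGAM and MNDA held between 0 and 9 counts. The rows of other cell types were lower: those of the B cell markers held 1, 0 and 2, and those of the T cell, erythroid, fibroblast and epithelial markers held 0 in each library.

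In the cells treated for 8 h, DKC1 and NCL stood lower than in untreated cells, at 0.702 and 0.623 times their level at 0 h. DKC1 was at 0.607 times that level at 24 h, while the NCL level at 24 h lay between those at 0 h and 8 h. For both, the interval between 8 h and 24 h included no change. NPM1, BOP1 and POLR1B had intervals that included no change at either time, as did NOP58 and RRP12. None of these 7 differed by more than 1 on the log2 scale between any libraries.

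DKC1 (chromosome X of GRCh38, 154762742 to 154777689, forward strand) encodes dyskerin, the pseudouridine synthase of box H/ACA ribonucleoproteins and a component of telomerase. Its counts were 164 before treatment, 96 after 8 h and 92 after 24 h, which is 107, 75.0 and 64.8 CPM. The untreated library was the highest, and the treated libraries lay close together. Against 0 h, the 8 h library gave a log2 ratio of -0.51 (exact 95% counting interval -0.89 to -0.14) and the 24 h library one of -0.72 (-1.11 to -0.34). Between 8 h and 24 h it was -0.21 (-0.64 to 0.22). In bulk RNA, fewer cells that express a gene and less RNA of it per cell cannot be told apart.

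NCL (chromosome 2, 231453531 to 231483641, reverse strand) encodes nucleolin, an abundant RNA-binding protein with roles in transcription and early processing of ribosomal RNA. It was counted 77 times before treatment, 40 times after 8 h and 58 times after 24 h, or 50.1, 31.2 and 40.8 CPM. The 8 h library was the lowest and the untreated library the highest. Its log2 ratio against 0 h was -0.68 at 8 h (-1.27 to -0.11) and -0.30 at 24 h (-0.81 to 0.21), where the interval included 0. From 8 h to 24 h the ratio was 0.39 (-0.22 to 1.01), so a return towards the untreated level was not detectable at this depth.

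NPM1 encodes nucleophosmin, a chaperone of the outer, granular layer of the nucleolus. Its 166 counts before treatment, 163 after 8 h and 157 after 24 h correspond to 108, 127 and 111 CPM. The log2 ratio was 0.24 at 8 h (-0.08 to 0.56) and 0.03 at 24 h (-0.29 to 0.36). Changes down to -0.29 or up to 0.56 thus stayed within these intervals.

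**Figure D1:**
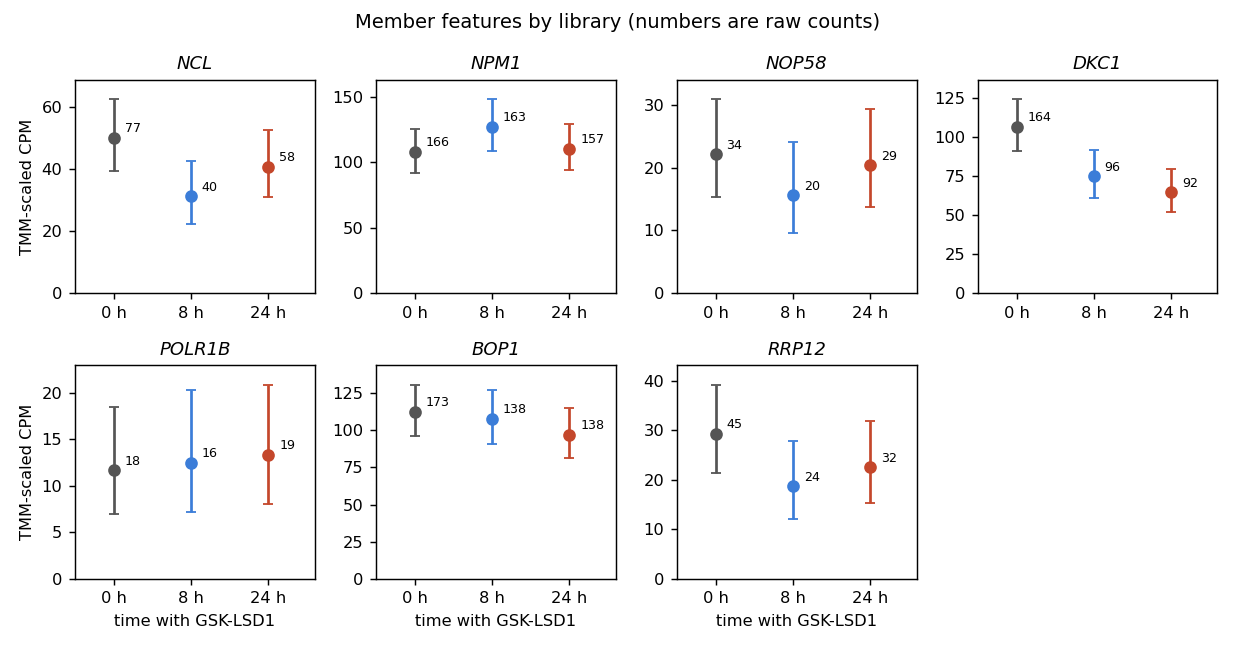
TMM-scaled CPM (y axis, from 0) of 7 nucleolar factors at 0 h, 8 h and 24 h of GSK-LSD1 (x axis), 1 library per point, with exact 95% Poisson intervals and raw counts beside the points. The DKC1 points lie at 107, 75.0 and 64.8 CPM and their intervals at 0 h and 24 h do not overlap, while for the other 6 factors the intervals of all 3 libraries overlap.

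The box C/D proteins were covered unevenly. NOP58, a core protein of these particles, had 34 counts before treatment, then 20 and 29. The 8 h library was the lowest, as for NCL, but with fewer counts. Its log2 ratio was -0.50 at 8 h (-1.38 to 0.34) and -0.12 at 24 h (-0.88 to 0.64). The rows of its partner NOP56 and of FBL, the methyltransferase of the particle, held 0 counts in every library, which allows up to 2.34 CPM in the shallowest. NOLC1, a chaperone of snoRNA particles, had 1 count at 0 h and 0 at 8 h and 24 h. No ratio is given for NOP56, FBL and NOLC1.

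These zeros belong to the rows and not necessarily to the genes. GENCODE v44 lists 68 protein-coding transcripts of the 10 genes, and 0 of them have a row under their own identifier. Of their 85 non-coding transcripts, 58 do. In the canonical transcript of NOP56, 100% of the exon bases also lie in exons of non-coding transcripts that have rows of their own, and in FBL 99.6% do. For NOLC1 the share is 17.7%, but 100% of its bases are shared with other coding transcripts. For DKC1 the shares are 92.1% and 100%, and for NPM1 98.6% and 100%, although these rows held counts. How reads shared between rows were counted is not given in the sources used here, so a row's count may not be the full count of its gene. For that reason, and since the length that each row covers is unknown, levels were not compared between genes.

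BOP1 is part of the complex that processes the precursors of the large ribosomal subunit, and it had the most counts of these rows in untreated cells. It had 173 counts before treatment and 138 in each treated library, or 113, 108 and 97.2 CPM. Its log2 ratio was -0.06 at 8 h (-0.40 to 0.27) and -0.21 at 24 h (-0.55 to 0.12). RRP12, which acts in maturation and nuclear export of ribosomal subunits, had 45, 24 and 32 counts. Like NCL and NOP58, it was lowest at 8 h and highest at 0 h, with log2 ratios of -0.64 (-1.42 to 0.10) and -0.38 (-1.08 to 0.31). POLR1B, the second-largest subunit of RNA polymerase I, had 18, 16 and 19 counts. Its log2 ratios were 0.09 at 8 h (-0.97 to 1.15) and 0.19 at 24 h (-0.82 to 1.21), so changes within these bounds were not detectable at this depth.

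**Figure D2:**
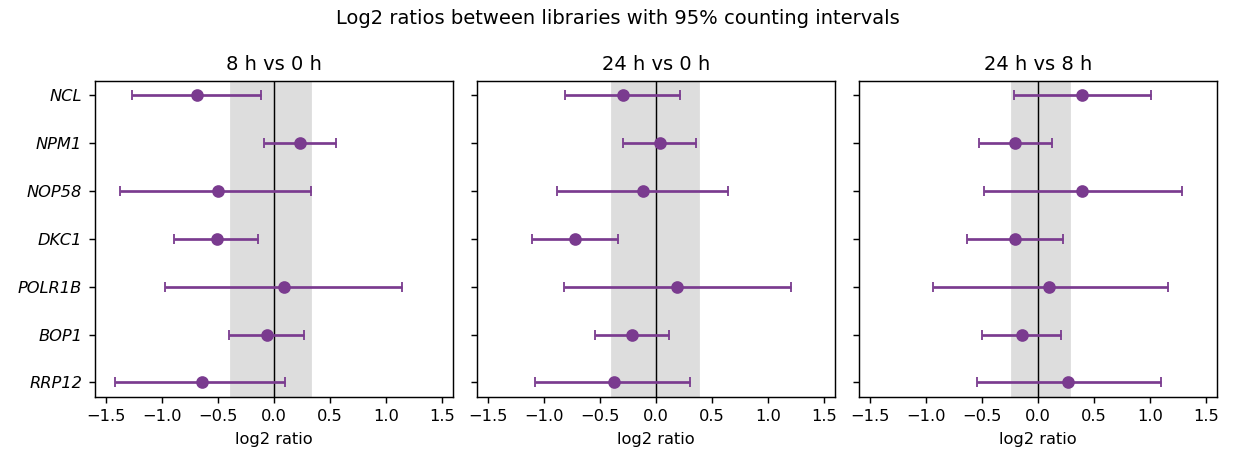
Log2 ratios (x axis) of 7 nucleolar factors (y axis) between libraries with exact 95% counting intervals, in a panel each for 8 h vs 0 h, 24 h vs 0 h and 24 h vs 8 h. The grey band spans the lower to the upper quartile of all 9609 features tested; DKC1 and NCL at 8 h and DKC1 at 24 h are the points whose intervals lie below 0.

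Across the 7 factors with counts, 5 had a ratio below 0 at 8 h and 5 at 24 h, beside 51.0% and 50.8% of all features tested. This count depends on the scaling: NPM1 at 24 h turned from 0.03 to -0.05 with total counts, with or without mitochondrial transcripts, and POLR1B at 8 h from 0.09 to -0.0011 with total counts without mitochondrial transcripts, which makes 6 of the 7. The median log2 ratio was -0.50 at 8 h and -0.21 at 24 h, beside medians of -0.0093 and -0.011 over all 9609 features tested, those that reached 10 counts in some library. These features are 6837 accession rows, like those of the 7 factors, and 2772 transcript rows. Of the 9609, 8.4% had a log2 ratio below -1 at 8 h and 7.71% at 24 h, and 5.91% and 8.11% had one above 1. Of the 7 factors, 0 did so in either direction. For 24 h against 8 h, 5.55% of features lay above 1 and 3.16% below -1, and again 0 of the 7 did. The counting interval lay wholly below 0 for 2 of the 7 at 8 h, where 9.71% of all features did so, and for 1 of the 7 at 24 h, against 12.6%. It lay above 0 for none of the 7, against 11.7% at 8 h and 13% at 24 h. The 4218 features that reached 50 counts have a depth nearer that of DKC1 and NCL. Of these, 1.66% had a log2 ratio below -1 at 8 h and 2.18% at 24 h, and 2.25% and 3.34% had one above 1. Their interval lay below 0 for 14.6% at 8 h and 21.2% at 24 h. The count at 24 h is therefore near the background, and with 7 genes the count at 8 h rests on DKC1 and NCL alone.

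Among all features tested, 14.5% had a lower ratio than NCL at 8 h, 15.3% than RRP12, 19.6% than DKC1 and 19.7% than NOP58. At 24 h DKC1 stood at 12.9%, while NCL stood at 30.4% and NOP58 at 42.1%. From 8 h to 24 h, 0 of the 7 had an interval that excluded 0, where 5.58% of features lay below and 4.87% above. The comparisons at 8 h and 24 h share the untreated library.

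The 10 rows together held 678 counts in untreated cells, 497 after 8 h and 525 after 24 h. Against 0 h, the sum gave a log2 ratio of -0.19 after 8 h (-0.36 to -0.016) and of -0.26 after 24 h (-0.42 to -0.089). It is led by NPM1, BOP1 and DKC1, so it weighs the factors unequally. Without NPM1, the row with the most counts, the ratios were -0.35 (-0.56 to -0.15) and -0.36 (-0.56 to -0.17).

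Shares within this sum do not depend on how the libraries were scaled. DKC1 made up 24.2% of the sum in untreated cells (exact interval 21.0% to 27.6%), then 19.3% (15.9% to 23.1%) and 17.5% (14.4% to 21.1%). NPM1 made up 24.5% (21.3% to 27.9%), 32.8% (28.7% to 37.1%) and 29.9% (26.0% to 34.0%). In both treated libraries the share of DKC1 was thus lower and that of NPM1 higher than at 0 h. Of these, only the NPM1 share at 8 h had an interval that did not overlap the one at 0 h. Shares were compared between libraries and not between genes. The share of BOP1 was between 25.5% and 27.8% in all 3 libraries.

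**Figure D3:**
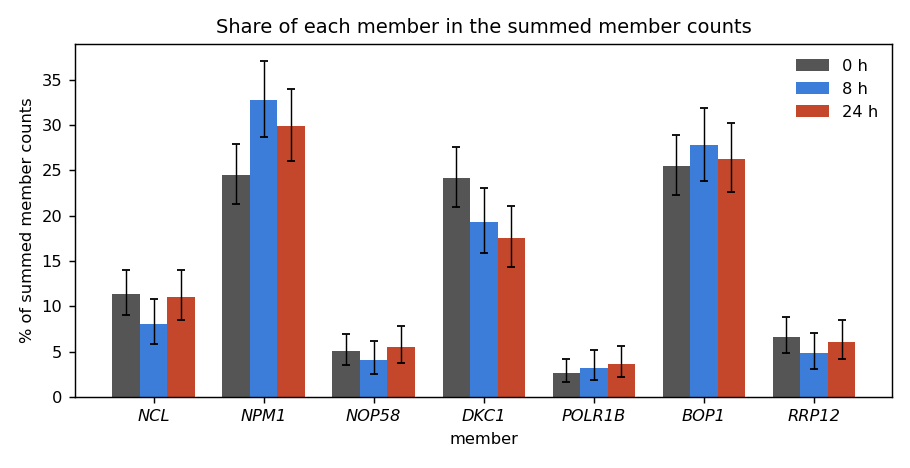
Share of each of 7 factors in the summed counts of the 10 rows (y axis, percent, from 0) at 0 h (grey), 8 h (blue) and 24 h (red), with exact 95% binomial intervals. DKC1 goes from 24.2% to 19.3% and 17.5%, and NPM1 from 24.5% to 32.8% and 29.9%.

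Set against NPM1 in the same library, DKC1 had 0.988 counts per NPM1 count in untreated cells, then 0.589 and 0.586. The log2 of this ratio differed from 0 h by -0.75 at 8 h (exact conditional interval -1.25 to -0.25) and by -0.75 at 24 h (-1.26 to -0.25). NCL had 0.464, 0.245 and 0.369 counts per NPM1 count, a difference of -0.92 at 8 h (-1.59 to -0.26) and of -0.33 at 24 h (-0.94 to 0.28). RRP12 also had an interval below 0 at 8 h, with a difference of -0.88 (-1.73 to -0.059). NPM1 was taken as the reference after its values were seen, all 6 other factors with counts were set against it, and the intervals are not adjusted for their number. At 8 h it had the highest log2 ratio of the factors with counts (0.24), so by that choice every difference from it lies below 0. Against library size, the RRP12 interval at 8 h included 0 (-1.42 to 0.10).

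Other transcripts of NPM1 have rows of their own. Rows of NPM1 retained-intron transcripts, in which part of an intron stays in the RNA, together had 28 counts in untreated cells, 8 after 8 h and 26 after 24 h. The 8 h library was the low one, and the other two were nearly equal. The log2 ratio was -1.54 at 8 h against 0 h (-2.89 to -0.37), 0.0064 at 24 h against 0 h (-0.82 to 0.83) and 1.55 at 24 h against 8 h (0.37 to 2.90). The NPM1 accession row in the same libraries had 166, 163 and 157 counts. There were 0.169 retained-intron counts per accession count before treatment, then 0.0491 and 0.166, and the log2 of this ratio at 8 h differed from 0 h by -1.78 (-3.16 to -0.55). This pair was singled out after its values were seen.

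As background, retained introns summed per gene could be tested for 1298 genes. Their median log2 ratio was -0.25 at 8 h and -0.15 at 24 h, 17.5% had a ratio below -1 at 8 h, and 9.32% had an interval below 0. A ratio above 1 at 24 h against 8 h was seen for 9.01%, and an interval above 0 for 2.62%.

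The NPM1 gene spans 171387116 to 171411810 on chromosome 5 of GRCh38, on the forward strand. In the 0 h and 24 h libraries, most of its retained-intron counts fell on a pair of transcripts that both reach into intron 9 of the canonical transcript, an intron of 2296 bases. One of them, ENST00000519955.1, holds 329 bases of the start of intron 9 and 53 of the end of intron 7, and had 10, 1 and 7 counts. The other, ENST00000524204.1, holds the last 207 bases of intron 9 and had 13, 2 and 11 counts. At 8 h the pair held 3 of the 8 counts, and ENST00000521710.1, which had 1, 4 and 1, held more than either. Their borders are shown to mark where these rows leave the spliced NPM1 messenger RNA, with the intron's first or last bases in capitals (chr5:171405392-171405421 and chr5:171407682-171407711, forward strand).
Exon to intron 9, in ENST00000519955.1: agtatagaaaaaGTgagtaaagttatctta
Intron 9 to exon, in ENST00000524204.1: atgcttttgtcttaatAGggtggttctctt
Both transcripts also share exons with the spliced RNA, so their counts need not come from the intron. Neither row reached 10 counts at 8 h, and ENST00000519955.1 did so only at 0 h, so no change is read from these rows.

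**Figure D4:**
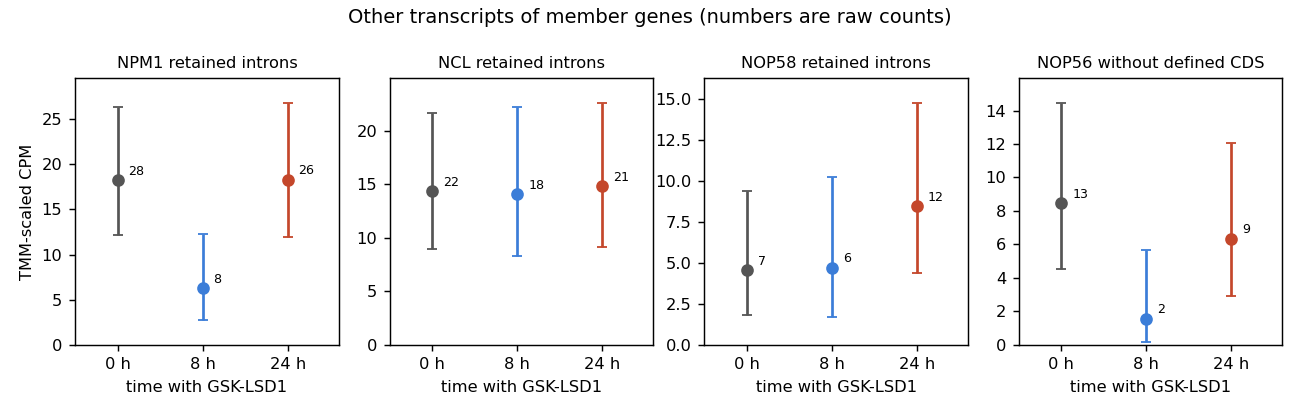
TMM-scaled CPM (y axis, from 0) of non-coding transcript rows, summed per gene, at 0 h, 8 h and 24 h (x axis), 1 library per point, with exact 95% Poisson intervals and raw counts. NPM1 retained introns had 28 counts, then 8 and 26, while NCL retained introns stay between 18 and 22.

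The counts of the other genes were too low to tell whether they shared a pattern with NPM1. NCL retained introns had 22, 18 and 21 counts, and their log2 ratio was -0.03 at 8 h (-1.01 to 0.94). This interval also holds the -0.68 of the NCL accession row at 8 h. NOP58 retained introns had 7, 6 and 12 counts, and those of DKC1 had 7, 4 and 8. Those of RRP12 had 3, 6 and 2, and its transcripts without a defined coding sequence had 9, 1 and 3. NOP56, whose accession row was at 0, had 13, 2 and 9 counts over transcripts without a defined coding sequence. The NOP56 row ENST00000470143.1 held 12, 1 and 6 of them. Both the sum and this row reached 10 counts only through the untreated library, so lower values later follow in part from that minimum and no change is read from them. Summed over the 10 genes, non-coding rows had 100, 54 and 88 counts. The log2 ratio of the sum was -0.63 at 8 h (-1.13 to -0.13) and -0.07 at 24 h (-0.50 to 0.36). Without NPM1 the ratio at 8 h was -0.38 (-0.95 to 0.17), so the interval then included 0. Retained introns of all 1298 genes tested had a median of -0.25 at 8 h, with 63.6% of genes below 0. Lower non-coding counts at 8 h are thus not particular to these genes.

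snoRNAs hosted by these genes were hardly counted. There are 14 snoRNA rows within introns of NCL, NOP56, NOP58 and DKC1, 6 of them with a count and 0 with at least 10. The 3 in NCL had 11, 5 and 4 counts together, and the 4 in NOP58 had 5, 3 and 6. SNORD20 had 3, 3 and 2 counts and SNORD11 had 1, 1 and 2. The 5 snoRNAs in NOP56 and the 2 in DKC1 had 0. All 14 together gave a log2 ratio of -0.74 at 8 h (-2.17 to 0.57), so a change was not detectable with these counts. How well these libraries capture RNAs as short as snoRNAs was not tested. Whether the reads come from the snoRNAs or from the introns that hold them was not tested either.

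Related copies may make some rows uncertain. GENCODE v44 names 49 NPM1 pseudogenes with a row, and 17 had a count. Together they had 53, 46 and 64 counts, with a log2 ratio of 0.06 at 8 h (-0.54 to 0.66). NPM1P27 alone held 33, 31 and 35. How far reads of NPM1 and its pseudogenes can be told apart was not tested. NOP58 overlaps opposite-strand exons over 13.7% of its canonical transcript, RRP12 over 5.14% and POLR1B over 1.34%. Whether strand was used in counting is not given in the sources used here.

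Of 87 symbols listed for further ribosome biogenesis genes, 75 had a non-coding row and 11 reached 10 counts in a library. These rows are mostly not the coding transcripts, and with 12.6% of the list tested they do not describe the pathway. At 8 h, 1 of the 11 had a log2 ratio above 1 and 0 had one below -1, beside 7.59% and 13% of 3189 genes summed in the same way. An interval below 0 was seen for 0 of the 11, against 6.74%. At 24 h, 3 of the 11 had a log2 ratio below -1 and 2 above 1, beside 11.9% and 10.9%, and the interval lay below 0 for 1, against 7.43%. Only 3 of the 11 had 10 counts in every library, and a gene that reached the minimum through a single library is drawn towards a difference in that direction, so nothing is read from these counts. The 3 genes that reached 20 counts did so only in untreated cells, and for the same reason their counts are given without ratios. NOC2L, a nucleolar protein that also binds histones, had 24, 18 and 8 counts. IMP4, a component of the early small-subunit processome, had 30, 19 and 17, and DDX18, a nucleolar RNA helicase, had 25, 16 and 11.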

How the data were processed

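RNA-seq libraries of THP-1 cells at 0 h, 8 h and 24 h were made with the KAPA RNA HyperPrep Kit with RiboErase. The submitters' processing notes name fastp, STAR and hg38; counting tool, annotation and strand setting are not given in the sources used here. The deposited values are raw counts of reads per feature, made by the authors without normalization. All 3 columns were used.

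Features that reached 10 counts in some library were kept, and libraries were scaled with TMM (edgeR 4.0.16, R 4.3.3). Log2 ratios used no prior count, and counts at or under 3 were set to 3 as a bound. No ratio was given where both counts were at or under 3. Their intervals are exact (Clopper-Pearson) 95% intervals conditional on the summed count. Ratios of a pair of rows have exact conditional odds-ratio intervals. With 1 library per time point no test was run. A feature was called past a log2 ratio of 1 or when its interval excluded 0. Scripts were tested on simulated data. Remaining steps used Python 3.11.15, numpy 2.4.6, pandas 2.3.3, scipy 1.17.1 and matplotlib 3.10.9.

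Transcript rows were matched by identifier to GENCODE v44 (127951 of 140222). Accessions of the 10 factors were paired with gene symbols by the rule that defined the group, since the files do not pair them. Factors and lists were chosen with earlier results of these data known. Named were all 10 factors, their other rows with at least 10 counts, and listed pathway genes with at least 20. Other rows and sums of rows, among them those of SNORD20, SNORD11, CD33 and NPM1P27, are named as context and were chosen after values were seen. Alternatives were size factors from DESeq2 1.42.0, total counts (also after removal of mitochondrial transcripts), other thresholds and filters, a prior count of 2 and leaving out single factors.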

Additional observations from a re-analysis of the deposited data

How the results depend on the processing

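Under DESeq2 size factors and total counts with or without mitochondrial transcripts, 246 ratio values moved by at most 0.094 on the log2 scale. Each ratio was counted once per scaling, sums over genes among them, and none changed beyond its counting interval. In 2 of these values, both of the same ratio, an interval came to exclude 0. That ratio, of retained introns summed over the 10 genes at 8 h against 0 h, was -0.48 with TMM. It was -0.57 with total counts, with or without mitochondrial transcripts. With a log2 threshold of 0.5, 4 of the 7 factors lay below it at 8 h and 1 at 24 h, where 0 lay below -1. Of all 9609 features, 19.9% lay below -0.5 at 8 h and 20.1% at 24 h. Of the 4 factors at 8 h, NOP58 had an interval that included 0, as did RRP12. With a threshold of 2 there were 0. Requiring at least 50 counts in a library left 4 factors, of which 3 had a ratio below 0 at 8 h and 3 at 24 h, in place of 5 of 7 at each time, since fewer factors were tested. No share of all features is set beside this count, so nothing is read from it. The median ratios were -0.47 at 8 h and -0.21 at 24 h with a prior count of 2, and -0.51 and -0.25 without POLR1B. No paired analysis was possible because each time point has 1 library. Depth limits the low rows most: for POLR1B, with 16 to 19 counts, the interval at 8 h ran from -0.97 to 1.15.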
